A study of Mus musculus with 9 samples.

Results

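Slc16a1, Slc16a7, Slc16a10, Slc16a11, Slc16a12 and Slc16a13 are 6 monocarboxylate transporter genes of the solute carrier 16 family, and their mRNA was measured in rat liver. They were found by gene name in a count table of 19686 genes, of which 13 carry a Slc16a name. The 6 genes were chosen by their levels in the control, model and DSS groups of these same libraries, so their levels and fold changes are given as a description, with no test.

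Liver RNA was sequenced from 9 male Wistar rats, 3 in each of 3 groups, to follow hepatic gene expression in fructose-fed rats given an extract of Danggui-Shaoyao-San, a herbal formula. The control rats drank purified water and received saline by gavage. The model rats drank water with 15% fructose and received saline by gavage. The rats labelled DSS drank water with 15% fructose and received by gavage 1.8 g/kg of an extract of the formula. The label does not name the extract. It was taken as the aqueous methanol extract, the only extract that was taken to RNA sequencing. Treatment lasted 8 weeks in every group, and the rats were fasted for 12 h before tissue was taken. The organism label says mouse, but the strain is a rat strain and the Ensembl identifiers belong to rat genes, and rat was therefore taken as the species.

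Proteins of this family sit in the plasma membrane, and several of them carry lactate, pyruvate and ketone bodies together with a proton. Others move different cargo, such as aromatic amino acids, thyroid hormones or creatine, and for some the physiological substrate is less certain. In liver they stand at the exchange of fuel between hepatocytes and blood, since hepatocytes take up lactate for gluconeogenesis and release ketone bodies during fasting.

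The total count per library ran from 14345819 (control 3) to 26837227 (model 1). Levels are given as CPM, edgeR's counts scaled to a common normalised library size. Albumin mRNA, which marks hepatocytes, took between 9.91% and 12.8% of the counts in the 9 libraries, and all 6 hepatocyte markers were detected in every library. EdgeR called 0 of these 6 in each comparison, with 1, 1 and 3 at an unadjusted p under 0.05 in model versus control, DSS versus model and DSS versus control, and DESeq2 called 1 in each. Over all genes the shares at such a p were 13.2%, 8.02% and 24.3%, and DESeq2 called 256, 147 and 769. The median log2 fold change of the hepatocyte markers was 0.26, -0.03 and 0.28 in that order, and in DSS versus control all 6 markers had values above 0, the highest 0.81 for Apoa1 (SE 0.16, edgeR FDR 0.0205). Model 1 stood apart on the second principal component, at -47.1, while the other 8 libraries lay between -10.9 and 17.6, and its normalisation factor of 0.871 was the lowest. Whole liver was sequenced, so fewer cells of a type and less RNA per cell cannot be told apart. The 3 comparisons share libraries, and their values are given side by side. All 6 genes passed the filter on low counts in each comparison. Transcript lengths of the rat were not used, so the levels of different genes are not compared with each other.

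Slc16a11 (ENSRNOG00000018748) encodes MCT11, a proton-coupled transporter of pyruvate whose human gene carries a haplotype associated with type 2 diabetes. Its level was 17.9, 15.2 and 19.2 CPM in the control rats, 8.78, 12.2 and 10.6 CPM in the model rats, and 4.20, 3.41 and 3.16 CPM in the DSS rats. Every model rat lay below every control rat, and every DSS rat lay below every model rat. The means were 17.4 ± 2.03 CPM in control, 10.5 ± 1.72 CPM in model and 3.59 ± 0.544 CPM in DSS (SD, n = 3). From the highest to the lowest, the order of the groups was control, model, DSS.

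The log2 fold change of Slc16a11 was -0.73 (SE 0.18) in model versus control, -1.55 (SE 0.22) in DSS versus model and -2.29 (SE 0.17) in DSS versus control, the last a 4.88-fold lower level. Ranked from the lowest log2 fold change, Slc16a11 stood at place 56 of 12633 genes in DSS versus control, place 91 of 12502 in DSS versus model and place 589 of 12486 in model versus control. Since Slc16a11 was chosen by these same levels, the places are a description only. The gene was counted with modest depth, from 253 to 449 counts per library in control and from 61 to 77 in DSS. Counting error alone came to between 11.4% and 12.8% of the count in the DSS libraries, where the coefficient of variation between rats was 15.2%. Without model 1 the log2 fold change of model versus control was -0.62.

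**Figure D1:**
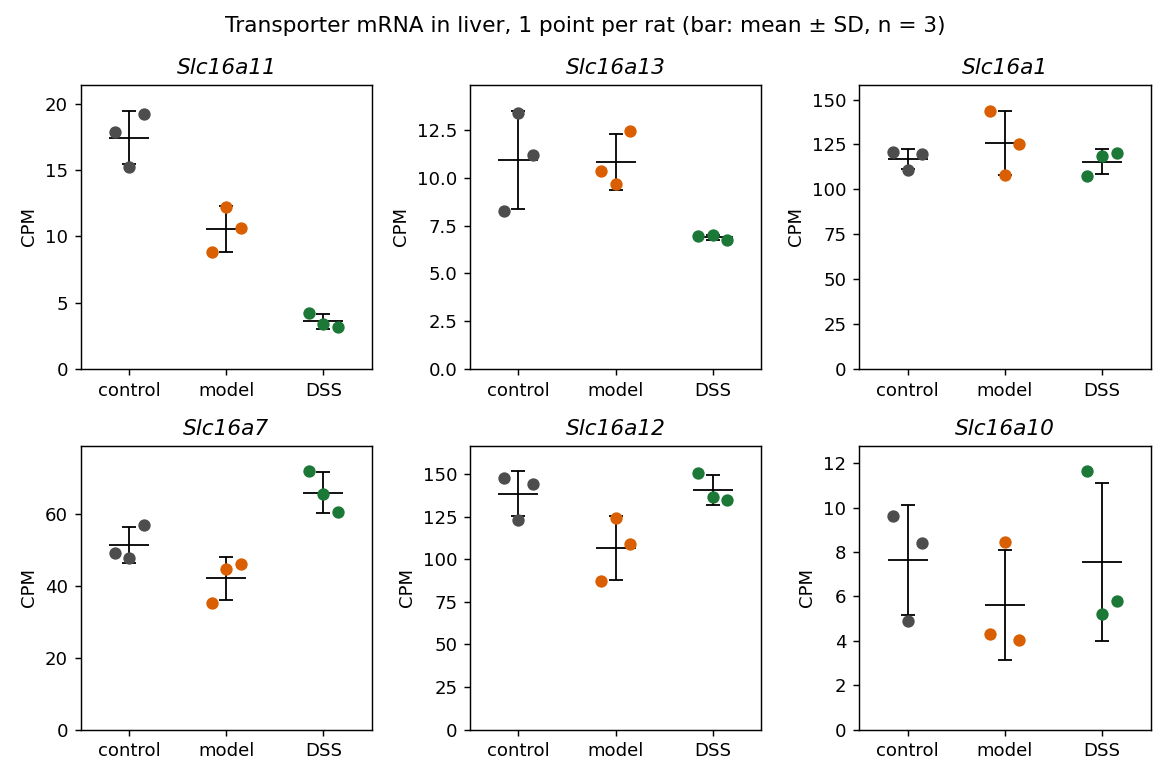
CPM of the 6 transporter genes in each rat by group, with points for rats and a bar for the mean ± SD (n = 3), each panel on its own axis from 0. The Slc16a11 points step down from control (15.2 to 19.2) to model (8.78 to 12.2) to DSS (3.16 to 4.20) with no overlap, while the Slc16a13 points are low in DSS alone.

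Slc16a13 (ENSRNOG00000018785) encodes MCT13, a less studied member of the family, and lies next to Slc16a11 in the mouse RefSeq annotation (GRCm38.p6). Its level was 8.24, 13.4 and 11.2 CPM in control, 10.4, 9.67 and 12.4 CPM in model, and 6.93, 6.98 and 6.73 CPM in DSS. The control and model rats overlapped, and the DSS rats lay below all of them. The means were 10.9 ± 2.57 CPM in control, 10.8 ± 1.44 CPM in model and 6.88 ± 0.134 CPM in DSS (SD, n = 3). Control and model, neighbours in this order, did not differ beyond their spread.

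The log2 fold change of Slc16a13 was -0.01 (SE 0.21) in model versus control, -0.65 (SE 0.17) in DSS versus model and -0.67 (SE 0.19) in DSS versus control. Its coefficient of variation in the DSS rats, 1.95%, was smaller than the counting error of at least 8.77% in those libraries, so the closeness of these 3 values is below what the depth can resolve. The value near 0 in model versus control had no stable sign, and ran from -0.17 without control 1 to 0.16 without control 2.

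Counts of Slc16a11 divided by counts of Slc16a13 in the same library do not depend on how libraries were scaled. This ratio was 2.17, 1.14 and 1.71 in control, 0.847, 1.26 and 0.856 in model, and 0.606, 0.488 and 0.469 in DSS. The ratios of control and model overlapped, because control 2 lay below model 2, and the DSS rats lay below all others. The mean ratio was 1.67 ± 0.516 in control, 0.989 ± 0.238 in model and 0.521 ± 0.0742 in DSS (SD, n = 3). The counting was without strand, so reads from any stretch where neighbouring genes overlap could not be assigned by direction.

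**Figure D2:**
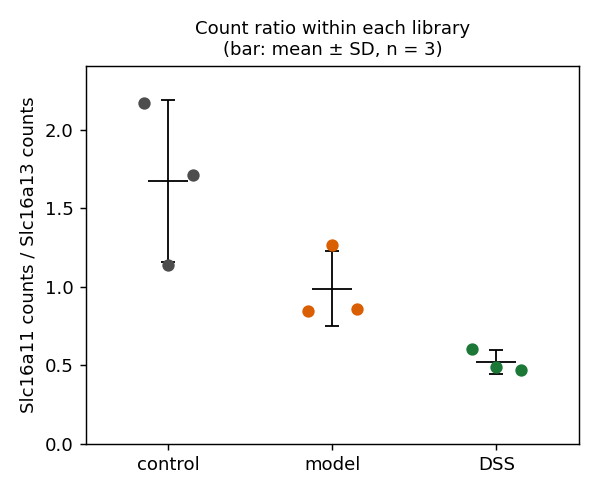
Slc16a11 counts divided by Slc16a13 counts in each library by group, with points for rats and a bar for the mean ± SD (n = 3). The DSS rats, at 0.469 to 0.606, lie below the model rats (0.847 to 1.26) and the control rats (1.14 to 2.17).

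Slc16a1 (ENSRNOG00000019996) encodes MCT1, the widely expressed carrier of lactate, pyruvate and ketone bodies, which needs basigin to reach the membrane. Its level was 121, 111 and 120 CPM in control, 144, 108 and 125 CPM in model, and 107, 118 and 120 CPM in DSS. All 3 groups overlapped, and the highest value was that of model 1. The group means of 117 ± 5.52, 126 ± 17.8 and 115 ± 6.92 CPM (SD, n = 3) did not differ beyond their spread. The log2 fold change was 0.11 (SE 0.15) in model versus control, and was -0.02 without model 1, 0.20 without model 2 and -0.05 with scaling by library size alone. It was -0.13 (SE 0.15) in DSS versus model, and ran from -0.22 without model 2 to -0.02 without model 1. In DSS versus control it was -0.03 (SE 0.10), and had no stable sign, from -0.07 without control 2 to 0.03 without DSS 1.

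Slc16a7 (ENSRNOG00000007839) encodes MCT2, which binds pyruvate and lactate with higher affinity than MCT1. Its level was 49.1, 47.8 and 57.0 CPM in control, 35.2, 44.8 and 46.2 CPM in model, and 71.8, 65.6 and 60.4 CPM in DSS. The model rats lay below the control rats by a narrow margin, and the DSS rats lay above both other groups. The means were 51.3 ± 4.98 CPM in control, 42.1 ± 5.98 CPM in model and 65.9 ± 5.70 CPM in DSS (SD, n = 3), so the order was DSS, control, model. The log2 fold change was -0.28 (SE 0.15) in model versus control, 0.65 (SE 0.15) in DSS versus model and 0.36 (SE 0.11) in DSS versus control. Without model 1 the value in model versus control was -0.18, closer to 0 by more than 1.5 times.

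Slc16a12 (ENSRNOG00000021916) encodes MCT12, a transporter of creatine. Its level was 148, 123 and 144 CPM in control, 87.2, 124 and 109 CPM in model, and 151, 137 and 135 CPM in DSS. Control and model overlapped because model 2 lay above control 2, whereas the DSS rats lay above every model rat and overlapped the control rats. The means were 138 ± 13.2, 107 ± 18.7 and 141 ± 8.71 CPM in control, model and DSS (SD, n = 3), and control and DSS did not differ beyond their spread. The log2 fold change was -0.37 (SE 0.16) in model versus control and 0.40 (SE 0.16) in DSS versus model. It was 0.02 (SE 0.12) in DSS versus control, and there -0.06 without control 2, 0.07 without control 1 and -0.12 with scaling by library size alone.

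Slc16a10 (ENSRNOG00000000588) encodes TAT1, also named MCT10, which carries aromatic amino acids and thyroid hormones. Its level was 9.64, 4.87 and 8.40 CPM in control, 4.32, 8.46 and 4.02 CPM in model, and 11.6, 5.20 and 5.80 CPM in DSS. Every group held both low and high rats, and all 3 groups overlapped. The coefficient of variation was 32.4% in control, 44.3% in model and 47.1% in DSS, above that of the other 5 genes in each group. Counting error was at most 12.4% of the count, so most of this spread lay between the libraries. The group means of 7.64 ± 2.47, 5.60 ± 2.48 and 7.54 ± 3.55 CPM (SD, n = 3) did not differ beyond it.

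The log2 fold change of Slc16a10 was -0.46 (SE 0.36) in model versus control, 0.43 (SE 0.40) in DSS versus model and -0.04 (SE 0.37) in DSS versus control. These values rested on single rats. In model versus control the value was -0.88 without model 2 and -0.24 without control 1. In DSS versus model it was -0.03 without DSS 1 and 0.85 without model 2, and in DSS versus control it ran from -0.48 without DSS 1 to 0.19 without control 1.

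In model versus control, the rats of the 2 groups did not overlap for 2 of the 6 genes, Slc16a7 and Slc16a11, both lower in model. Of all 12486 genes tested in that comparison, 20.7% did not overlap in either direction. In DSS versus model, 4 of the 6 did not overlap, with Slc16a11 and Slc16a13 lower and Slc16a7 and Slc16a12 higher in DSS, and over all 12502 genes the share was 13.9%. In DSS versus control, 3 of the 6 did not overlap, with Slc16a11 and Slc16a13 lower and Slc16a7 higher in DSS, and over all 12633 genes the share was 30.2%. Since the genes were selected on these levels, nothing is read from their counts against these shares. Slc16a11 was the member with lower values at both steps, and Slc16a1 and Slc16a10 overlapped between the groups in all 3 comparisons.

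**Figure D3:**
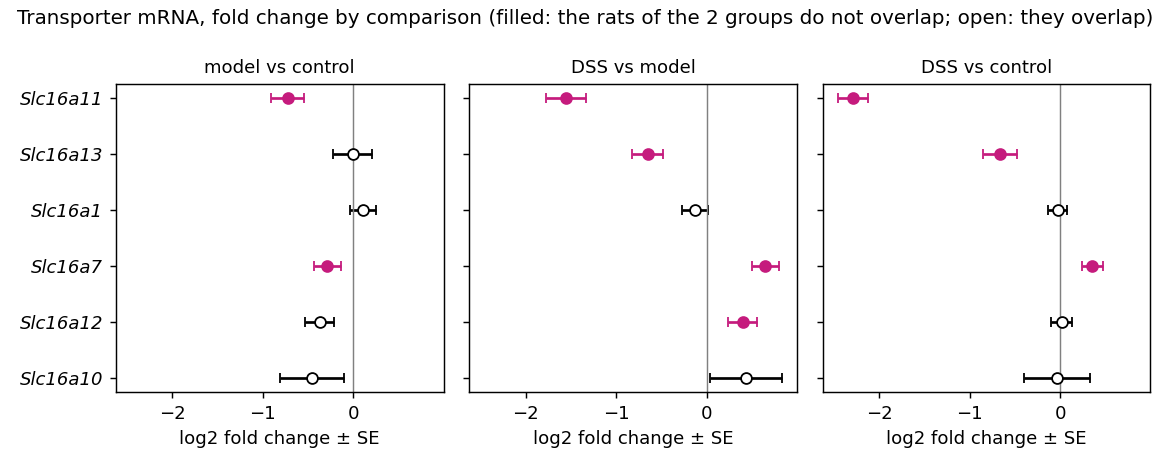
Log2 fold change ± SE of the 6 transporter genes in the 3 comparisons, with filled points where the rats of the 2 groups do not overlap. Slc16a11 lies at -0.73, -1.55 and -2.29, Slc16a13 near 0 and then at -0.65 and -0.67, and Slc16a7 at -0.28, 0.65 and 0.36.

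Genes that work beside these transporters were taken from lists of 45 genes, and these, unlike the transporters above, were tested. The lists were chosen with earlier results of these data known, so their counts beside the shares over all genes are a description. The call needed an edgeR false discovery rate (FDR) over all genes tested no higher than 0.01 and a log2 fold change of 0.5 or more in either direction. In DSS versus control, 39 of the 45 were tested, and 3 fell and 2 rose. Over all genes of that comparison 187 were called, or 1.48%, with 104 lower and 83 higher. The median log2 fold change was 0.01 over the list and -0.01 over all genes.

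The 3 genes that fell in DSS versus control encode 2 subunits and a kinase of the pyruvate dehydrogenase complex. Dlat, the acetyltransferase subunit of the pyruvate dehydrogenase complex, had a log2 fold change of -1.49 (SE 0.15, edgeR FDR 0.00106), from 42.6 to 63.5 CPM in control to 17.2 to 19.5 CPM in DSS. Pdhb, the beta subunit of the complex's dehydrogenase, had a log2 fold change of -1.04 (SE 0.12, edgeR FDR 0.00195). Pdk1, a kinase that switches the complex off, had a log2 fold change of -1.11 (SE 0.09, edgeR FDR 0.000467), from 71.4 to 79.7 CPM in control to 34.1 to 35.2 CPM in DSS. In these 3 genes all DSS rats lay below all control rats, and each was called in all 13 alternatives of the fit. Their log2 fold changes in the other comparisons, where edgeR called none, were -0.32 for Dlat, -0.08 for Pdhb and -0.34 for Pdk1 in model versus control, and -1.16, -0.95 and -0.77 in DSS versus model. Those of model versus control moved with single libraries, from -0.44 without control 3 to -0.16 without control 2 for Dlat and from -0.25 without model 1 to 0.07 without model 2 for Pdhb. DESeq2 called all 3 in DSS versus model, and edgeR with no filter on low counts called Dlat, so that over the 13 alternatives there Dlat was called in 2 (FDR from 6.67e-07 to 0.176), and Pdhb and Pdk1 in 1 each (FDR from 0.000634 to 0.381 and from 0.00588 to 0.432).

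Of the 13 lactate and pyruvate enzymes, 7 were at an unadjusted p under 0.05 in DSS versus control, and DESeq2 called 4. The share of all genes at such a p was 24.3%, and DESeq2 called 769 over all genes. EdgeR did not call the other 10 of the 13 in that comparison. The 4 of these with the largest absolute log2 fold change, a choice made after their values were seen, had both signs. Pdk4, another kinase of the complex, was at 0.82 (SE 0.25, edgeR FDR 0.0947), the opposite sign to Pdk1, and Pdp2, a phosphatase that switches the complex on, was at -0.62 (SE 0.16, edgeR FDR 0.0529). Pdha1, the alpha subunit of the dehydrogenase, was at -0.36 (SE 0.12, edgeR FDR 0.109) and Pc, pyruvate carboxylase, at 0.36 (SE 0.11, edgeR FDR 0.0874). In model versus control, edgeR called 0 of the 13, with 4 at an unadjusted p under 0.05, and DESeq2 called 2. Of all genes 13.2% were at such a p, edgeR called 0.0801% and DESeq2 called 256. The 4 largest of the 13 there were Ldha, lactate dehydrogenase A, at 0.93, Pc at 0.76, Pdk4 at 0.63 and Pdp2 at -0.58 (edgeR FDR 0.117, 0.0629, 0.13 and 0.303). Ldha lay at 758 to 784 CPM in control, 1174 to 1947 CPM in model and 794 to 893 CPM in DSS, and Pc at 411 to 433, 651 to 784 and 520 to 588 CPM. Neither gene overlapped between any pair of groups, with the model rats highest. The log2 fold changes in DSS versus model were -0.79 for Ldha and -0.39 for Pc (edgeR FDR 0.314 and 0.536).

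The 2 genes that rose in DSS versus control belong to the handling of other cargo of the family. Their lists held 5 ketone body enzymes and 9 genes of thyroid hormone and aromatic amino acid handling. In model versus control, DSS versus model and DSS versus control, 5, 1 and 4 of the 5 were at an unadjusted p under 0.05. The longer list had 3, 1 and 3 at such a p, and all genes had 13.2%, 8.02% and 24.3%. DESeq2 called 2, 1 and 3 ketone body enzymes, 1, 0 and 1 genes of the longer list, and 256, 147 and 769 over all genes. Bdh1, which interconverts the ketone bodies acetoacetate and beta-hydroxybutyrate, had a log2 fold change of 0.72 (SE 0.11, edgeR FDR 0.00755) and lay at 305 to 307 CPM in control and 486 to 545 CPM in DSS. Dio1, a deiodinase of thyroid hormones, had a log2 fold change of 0.87 (SE 0.14, edgeR FDR 0.0086). In both genes all DSS rats and all model rats lay above all control rats. In model versus control, where neither was called, the log2 fold change was 0.46 (SE 0.12, edgeR FDR 0.157) for Bdh1 and 0.74 (SE 0.18, edgeR FDR 0.121) for Dio1. In DSS versus model it was 0.27 (SE 0.13, edgeR FDR 0.677) for Bdh1 and 0.15 (SE 0.19, edgeR FDR 0.894) for Dio1, the latter running from 0.01 without DSS 1 to 0.31 without model 1. Neither was called when any single one of the 6 libraries was left out, with edgeR FDR from 0.0163 to 0.0344 for Bdh1 and from 0.0132 to 0.038 for Dio1, and over all 13 alternatives it ranged from 5.59e-09 to 0.0344 and from 2.11e-06 to 0.038. In DSS versus control all 5 ketone body enzymes were above 0, and in the longer list 3 were above 0 and 6 below. Bdh2 was at -0.89 (SE 0.18, edgeR FDR 0.0844) in model versus control and 1.12 (SE 0.19, edgeR FDR 0.0623) in DSS versus model.

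In model versus control, edgeR called 0 of 39 related genes, with 17 at an unadjusted p under 0.05 and 6 called by DESeq2, while over all genes 10 were called, or 0.0801%, with 13.2% at such a p and 256 called by DESeq2. In DSS versus model, edgeR called 0 of 38 related genes, with 7 at an unadjusted p under 0.05 and 4 called by DESeq2, while over all genes 17 were called, or 0.136%, with 8.02% at such a p and 147 called by DESeq2. The median log2 fold change of the list was 0.04 in model versus control and -0.06 in DSS versus model, and that of all genes was 0.00 in both. The lowest edgeR FDR was 0.0299 for Slc43a1, an amino acid transporter, in model versus control (log2 fold change -1.17, SE 0.17), and 0.0308 for Dlat in DSS versus model (log2 fold change -1.16, SE 0.16). Slc43a1 was named after its values were seen. Whether the comparisons differ from each other in these genes was not tested.

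Of the other 7 Slc16a genes in the table, 4, 3 and 4 passed the filter on low counts and were tested in model versus control, DSS versus model and DSS versus control. EdgeR called 0 of those tested in each comparison, with 2, 0 and 2 at an unadjusted p under 0.05, and DESeq2 called 1, 0 and 1. The shares of all genes at such a p were 13.2%, 8.02% and 24.3% in the same order, and DESeq2 called 256, 147 and 769 over all genes. Of the 2 partners, edgeR and DESeq2 called 0 in each comparison, with 1, 0 and 1 at an unadjusted p under 0.05. Slc16a4, another family member, lay at 60.0, 34.8 and 25.1 CPM in control, 93.1, 82.4 and 96.5 CPM in model, and 127, 92.9 and 85.7 CPM in DSS. All fructose-fed rats lay above all control rats, with log2 fold changes of 1.18 (SE 0.29, edgeR FDR 0.127) in model versus control and 1.33 (SE 0.34, edgeR FDR 0.076) in DSS versus control. Slc16a6 had a log2 fold change of -1.01 (SE 0.36, edgeR FDR 0.121) in DSS versus control and Slc16a3, the glycolytic lactate exporter MCT4, one of -1.09 (SE 0.51, edgeR FDR 0.222), at a mean of 0.287 CPM in DSS. Basigin (Bsg), the partner of MCT1, lay at 355 to 444 CPM in control, 529 to 577 CPM in model and 465 to 549 CPM in DSS, with log2 fold changes of 0.48 (edgeR FDR 0.208) in model versus control and 0.40 (edgeR FDR 0.106) in DSS versus control. Embigin (Emb), the other partner, had a log2 fold change of 0.69 (SE 0.33, edgeR FDR 0.241) in DSS versus control.

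The mitochondrial pyruvate carrier genes Mpc1 and Mpc2 had log2 fold changes of 0.55 (edgeR FDR 0.295) and 0.39 (edgeR FDR 0.454) in model versus control. EdgeR and DESeq2 called 0 of them in each comparison, with 1, 0 and 0 at an unadjusted p under 0.05. Of all genes, 13.2%, 8.02% and 24.3% were at such a p in model versus control, DSS versus model and DSS versus control. The list on creatine handling held 4 genes, Gatm, Gamt, Slc6a8 and Slc22a5, the last a carnitine transporter. Both tools called 0 of them in each comparison, with 1, 0 and 1 at an unadjusted p under 0.05, in both cases Slc22a5. In DSS versus control the log2 fold change of Slc22a5 was 0.66 (SE 0.19, edgeR FDR 0.0667). Slc6a8, the creatine transporter, was at -0.21 (SE 0.32, edgeR FDR 0.734), and Gamt and Gatm, the enzymes of creatine synthesis, were at -0.35 (edgeR FDR 0.23) and -0.09 (edgeR FDR 0.818).

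**Figure D4:**
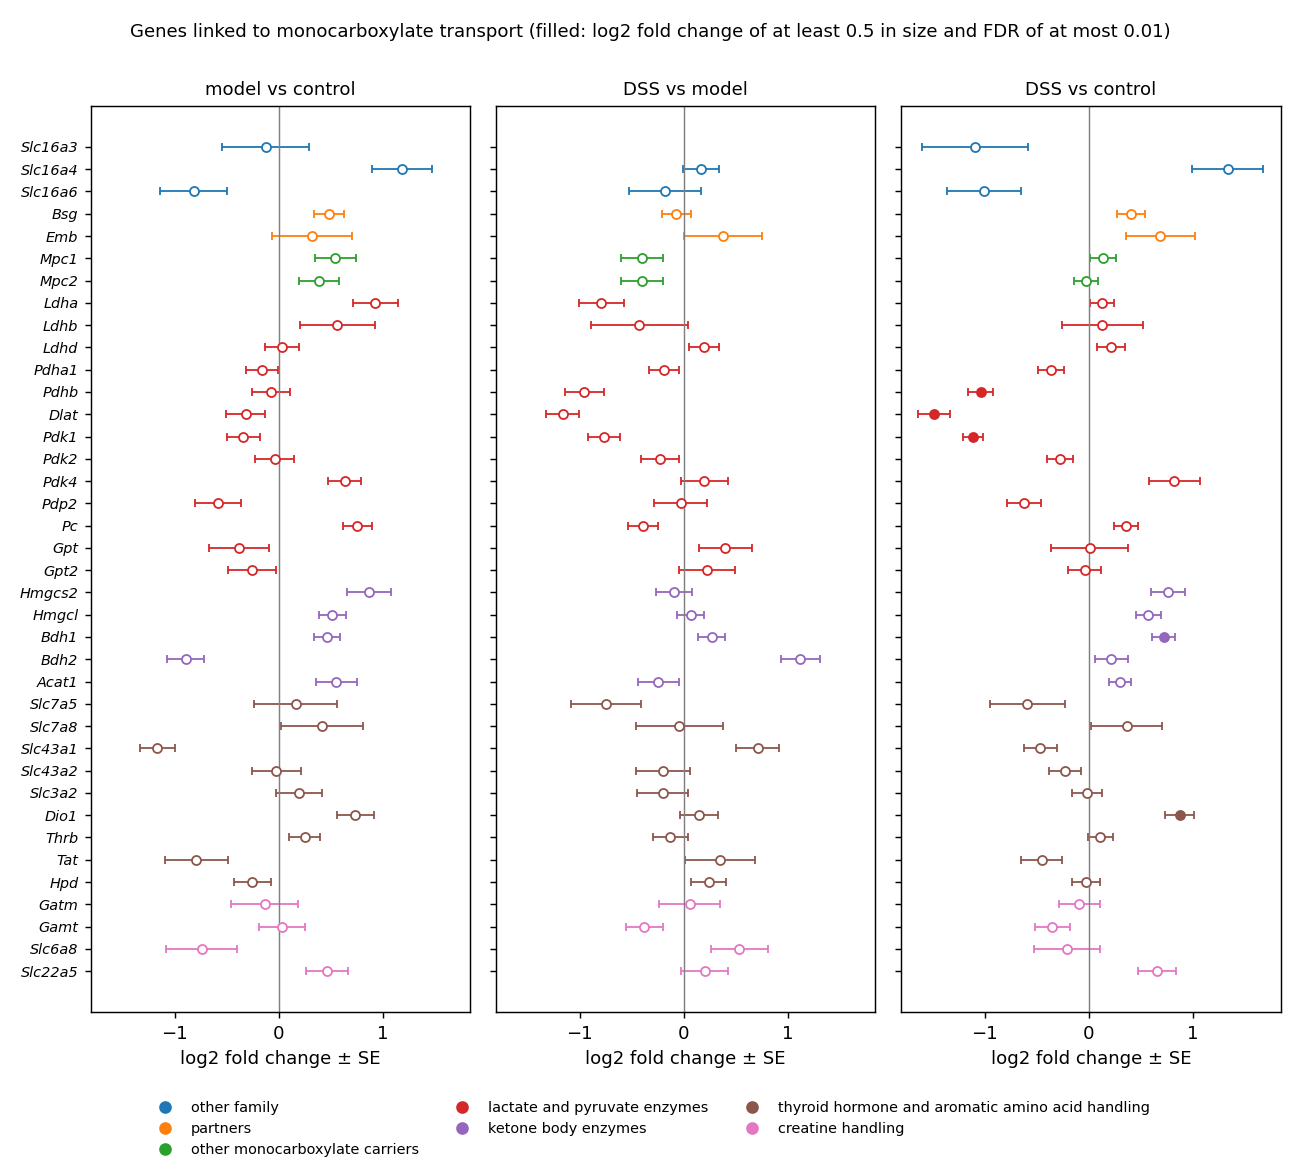
Log2 fold change ± SE of related genes that were tested, coloured by list, in the 3 comparisons, with filled points for called genes. The filled points are Dlat (-1.49), Pdk1 (-1.11), Pdhb (-1.04), Bdh1 (0.72) and Dio1 (0.87), all in DSS versus control.

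The genes whose pattern over the 9 libraries was most like that of Slc16a11 were sought among 10101 other genes with a mean count of at least 50. Among the 5 with the highest values, Pearson's r of log2(CPM + 1) was 0.974 for AABR07052523.1, 0.960 for Tmem33, 0.958 for Pdk1 and 0.951 for Gcnt2, a glycosyltransferase. The points share their groups, so these r are a description of the stepwise order and carry no p. Gcnt2 had means of 23.3 ± 3.22 CPM in control, 9.81 ± 1.49 CPM in model and 4.55 ± 0.534 CPM in DSS (SD, n = 3). As in Slc16a11, the groups of Gcnt2 did not overlap and stepped down in the order control, model, DSS. Tmem33 had the same order over a smaller range, with means of 141 ± 6.95, 121 ± 6.56 and 99.9 ± 1.08 CPM (SD, n = 3).

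The genes most like Slc16a13 were Il17rb, a receptor for interleukin 17 family cytokines, with r of 0.965, Serinc4 with 0.949, Ptdss2, a phosphatidylserine synthase, with 0.946, Mtap, an enzyme of methionine salvage, with 0.942, and Pus10 with 0.941. Il17rb lay at 28.7, 79.4 and 57.3 CPM in control, 59.5, 46.2 and 71.4 CPM in model, and between 8.18 and 10.1 CPM in DSS. Its control and model rats overlapped and its DSS rats lay below all of them, the arrangement seen in Slc16a13.

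**Figure D5:**
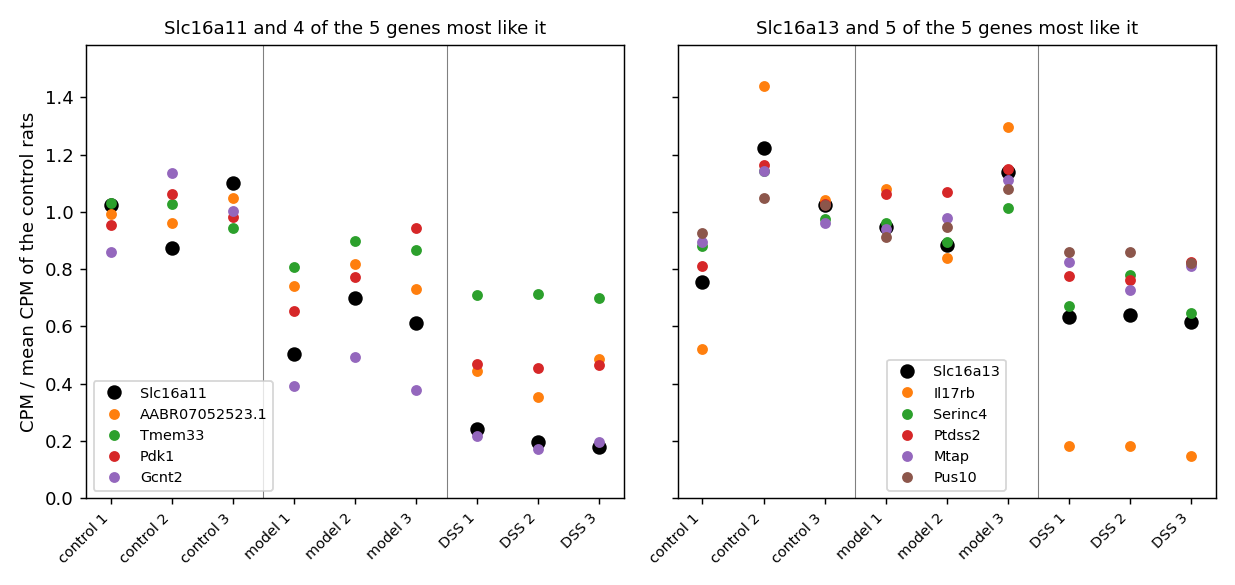
CPM per library of Slc16a11 with 4 of the 5 genes most like it (left) and of Slc16a13 with the 5 most like it (right), divided by the mean CPM of the control rats of the same gene. The group means of Slc16a11 and the 4 genes (r from 0.951 to 0.974) step down from control to model to DSS, and those of Slc16a13 and its like genes are lowest in DSS.

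Clock genes and markers of liver zones were measured in the same libraries. Of 15 clock genes, 14 were tested, and edgeR called 1 in model versus control, Per2, which was lower, and 3 in DSS versus control, Per2 and Cry1 lower and Npas2 higher, while over all genes 0.0801% and 1.48% were called. In each of these 2 comparisons 9 of the 14 were at an unadjusted p under 0.05, where the shares over all genes were 13.2% and 24.3%. DESeq2 called 3 and 8 of the list, and 256 and 769 over all genes. The call of Per2 in model versus control was lost when any 1 of the control libraries was left out and with a replicate block, since edgeR then called 0 genes in all, with 1129 to 1213 and 1166 at an unadjusted p under 0.05. The log2 fold change of Per2 on all 6 libraries was -2.48 (SE 0.15), with 75.1 to 90.0 CPM in control and 12.6 to 16.9 CPM in model. In DSS versus model edgeR called 0 clock genes, with 4 at an unadjusted p under 0.05, where the share over all genes was 8.02%. DESeq2 called 2 of the list there, and 147 over all genes. Cry1 lay at 24.6, 33.5 and 27.1 CPM in control, 19.1, 10.1 and 9.97 CPM in model, and 5.95, 4.28 and 3.62 CPM in DSS, with no overlap between groups and in the order seen in Slc16a11. Other clock genes had other orders. Means in control, model and DSS were 5.40, 40.5 and 96.9 CPM for Nr1d1, which edgeR did not call. They were 1.68, 25.1 and 10.1 CPM for Npas2 and 81.6, 14.6 and 14.9 CPM for Per2. Summed over the list, the clock genes came to 449, 445 and 461 CPM in control, 309, 476 and 359 CPM in model, and 504, 487 and 421 CPM in DSS, with none at 0. Averaged over the 9 libraries Clock took the most CPM of the list, but in every library other than model 3 another clock gene took more. Their part in the levels of Slc16a11 was not tested.

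The 7 pericentral markers summed to 2888, 3198 and 3475 CPM in control, 2374, 2353 and 2141 CPM in model, and 4235, 3074 and 3115 CPM in DSS, with none at 0. Cyp2e1 took the most CPM of the list in every library, with 1181, 1227 and 1115 CPM in model, where the sums were below those of all other rats. In model versus control 5 of the 7 had log2 fold changes below 0 and 2 above 0. The 4 largest in either direction were Oat at -1.46, Cyp1a2 at -0.69, Glul at 0.63 and Cyp2e1 at -0.63 (edgeR FDR 0.121, 0.304, 0.253 and 0.117), and of these the groups overlapped in Cyp1a2. The 7 periportal markers summed to 7562, 7065 and 7698 CPM in control, 6077, 6271 and 4494 CPM in model, and 9921, 5755 and 9206 CPM in DSS, with none at 0 and Cps1 taking the most CPM of the list in every library but model 1, where Pck1 did. In model versus control 4 of the 7 had log2 fold changes below 0 and 3 above 0. The 4 largest in either direction were Sds at -3.64, Pck1 at 0.89, Gls2 at -0.82 and Cps1 at -0.76 (edgeR FDR 0.0844, 0.419, 0.0521 and 0.123), and of these the groups overlapped in Pck1. EdgeR called 0 genes of either list in each comparison, with 5, 2 and 2 pericentral and 5, 2 and 4 periportal genes at an unadjusted p under 0.05 in model versus control, DSS versus model and DSS versus control. The shares over all genes at such a p were 13.2%, 8.02% and 24.3%. DESeq2 called 2, 1 and 1 pericentral and 5, 0 and 2 periportal genes, and 256, 147 and 769 over all genes. The part of liver zones in the levels of Slc16a7 and Slc16a12 was not tested.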

How the data were processed

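Whole liver mRNA of 9 rats was sequenced. The authors aligned reads with HISAT2, counted them on exons without strand with HTSeq 0.6.1 (rat build Rnor_6.0, per the submitters' processing notes), and deposited raw counts per gene. A table of assembled transcripts was not used here. Each comparison was fitted on its 6 libraries with edgeR 4.0.16 in R 4.3.3 (filterByExpr defaults, TMM, robust glmQLFit, two-sided glmQLFTest, Benjamini-Hochberg FDR). Calls needed an FDR no higher than 0.01 and a log2 fold change of 0.5 or more in either direction. CPM used TMM sizes over all 9 libraries. The fit of model versus control was also run on simulated counts with the same dispersion (spread beyond counting noise) for every gene. That setting is simpler than these libraries. The p-values weigh group differences against the spread between these rats, estimated for each gene with information shared across genes. Libraries of a group differed beyond counting noise (chi-square per gene 20.4 to 74.1, where noise alone gives about 1). Alternatives were DESeq2 1.42.0, other scalings and filters, a fit of all 9 libraries, a replicate block, each library left out, and other thresholds. The members and lists were chosen with earlier results of these data known. Named genes are the members, called related genes, otherwise up to 4 genes per list by absolute fold change, the 5 most like Slc16a11 and Slc16a13, and their neighbours. Slc16a9, Slc5a12 and Pecam1 were not matched. Results of 2 genes are not reported here. Mouse RefSeq (GRCm38.p6) gave neighbour names only.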

Additional observations from a re-analysis of the deposited data

How the results depend on the processing

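The log2 fold changes of Slc16a11 moved by less than 1 SD under every alternative run. With each library left out in turn, they ran from -0.85 to -0.62 in model versus control, from -1.69 to -1.43 in DSS versus model and from -2.41 to -2.19 in DSS versus control. Counts of called genes moved more, and the cause was not tested. Against 10 called in model versus control there were 71 with no filter on low counts, 256 with DESeq2, 25 with all 9 libraries in one fit, 75 at an FDR of 0.05, and 0 to 10 with a library left out (0 when any 1 of the control libraries was left out, with 1129 to 1213 at an unadjusted p under 0.05, 5 without model 1 and 2 without model 3). Against 17 in DSS versus model there were 38 with no filter, 147 with DESeq2, 11 with library size alone, 57 at an FDR of 0.05, and 2 (without DSS 1) to 12 (without model 2) with a library left out. Against 187 in DSS versus control there were 489 with no filter, 769 with DESeq2, 113 with all 9 libraries in one fit, 804 at an FDR of 0.05, and 86 (without DSS 1) to 132 (without DSS 2) with a library left out. Related genes called, 0 in model versus control, were 1 with no filter, 6 with DESeq2 and 1 at an FDR of 0.05. In DSS versus model, also 0, they were 1, 4 and 1 in the same settings. In DSS versus control, against 5, they were 3 with library size alone, 9 with DESeq2 and 3 with any library left out. Of the fold changes of the transporters, 4 moved by over 1 SD, all with library size alone, and 230 did not. Library size alone shifted the median of all genes by -0.15 in model versus control and -0.14 in DSS versus control. The labels give the groups the same replicate numbers, but libraries with the same number did not deviate together, with correlations from -0.26 to -0.01, and 0 of 6 libraries in each comparison correlated best with its own number, so the numbers were not taken as pairs. With a replicate block, edgeR called 0 genes in model versus control (1166 at an unadjusted p under 0.05), 7 in DSS versus model and 104 in DSS versus control. Depth limits Slc16a11 in DSS, at 61 to 77 counts per library.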

Other observations

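In the mouse RefSeq annotation (GRCm38.p6), Slc16a11 has Clec10a, Mgl2, Asgr2, Asgr1 and Dlg4 on one side and Slc16a13, Bcl6b, Rnasek and Alox12 among the genes on the other. Of the 9 neighbours other than Slc16a13, 7 were matched by name in the rat table, and 6, 7 and 7 were tested in model versus control, DSS versus model and DSS versus control. EdgeR called 0 of those tested in each comparison, with 1, 1 and 4 at an unadjusted p under 0.05, and DESeq2 called 0 in each. Over all genes 13.2%, 8.02% and 24.3% were at such a p. Bcl6b, a transcriptional repressor next to Slc16a13, had a log2 fold change of 0.49 (SE 0.22, edgeR FDR 0.392) in model versus control and -0.95 (SE 0.22, edgeR FDR 0.195) in DSS versus model, and was at -0.47 (SE 0.18, edgeR FDR 0.146) in DSS versus control. Dlg4, counted at a mean of no more than 1.45 CPM in any group, was at -0.08, -0.87 and -0.96 (edgeR FDR 0.943, 0.679 and 0.203) in the 3 comparisons. Asgr1, a subunit of the asialoglycoprotein receptor of hepatocytes, was at 0.65 (SE 0.19, edgeR FDR 0.181) in model versus control and 0.47 (SE 0.13, edgeR FDR 0.0593) in DSS versus control. Slc16a11 was at -0.73 and -2.29 in those 2 comparisons.

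Markers of Kupffer cells and leukocytes, endothelial cells, stellate cells, bile duct and red blood cells came to 27 genes. EdgeR called 0 of 22, 23 and 23 tested in model versus control, DSS versus model and DSS versus control, with 2, 1 and 2 at an unadjusted p under 0.05, and DESeq2 called 0 in each. The shares of all genes at such a p were 13.2%, 8.02% and 24.3%. In model versus control, log2 fold changes were below 0 for 6 of 7 Kupffer and leukocyte and 4 of 4 endothelial markers tested. The same held for 5 of 5 stellate, 3 of 4 red blood cell and 1 of 2 bile duct markers. In DSS versus model the values below 0 were 2 of 8, 1 of 4, 2 of 5, 1 of 4 and 1 of 2 in that order. The model rats did not move together. Endothelial markers summed to 191, 118 and 138 CPM in control, 89.3, 221 and 80.7 CPM in model, and 169, 136 and 121 CPM in DSS. Model 2 was thus the highest of all libraries, and model 1 and model 3 the lowest. In model the stellate sums were 59.5, 112 and 73.2 CPM, and those of Kupffer cells and leukocytes 248, 333 and 155 CPM. The bile duct sums there were 27.7, 13.4 and 21.3 CPM, with model 2 lowest. Of the 6 hepatocyte markers, 5 were above 0 in model versus control. The part of cell types in the levels of the transporters was not tested.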
